A study of Sicyos edulis with 9 samples.

Results

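Chayote (Sicyos edulis) fruits after 15 days of storage (S2) were compared with fruits at the optimal harvest stage (S1), which gives the first step of storage in a series that also holds a later stage. The 6 libraries, S2-1 to S2-3 and S1-1 to S1-3, are 6 of the 9 libraries of the series, and were chosen by the stage in their labels. Both stages are fruit tissue of wild-type plants, and no agent was applied to either. The mature fruits came from a field planting and were of the same size, and stored fruits were kept in plastic containers. The methods give a cool storage temperature while the series text gives room temperature, so the temperature of S2 is uncertain. The 3 libraries of a stage are described as biological replicates. Whether 1 library is 1 fruit is not given in the sources used here, so the spread between libraries cannot be assigned to single fruits.

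The files list 57814 unigenes (transcripts assembled with Trinity, grouped to 1 gene each) as FPKM, a read level scaled by transcript length and library total. A unigene was tested where its FPKM was at least 1 in at least 3 of the 6 libraries, which left 25755. Folds are S2 minus S1 on log2(FPKM + 1), a scale that understates the change of low unigenes. A unigene was called where limma's Benjamini-Hochberg adjusted p was under 0.05, with no minimum fold, and "rose" or "fell" is used of calls. In RNA of a whole tissue, fewer cells of a type and less RNA per cell cannot be told apart. Fruit markers could not be checked, since no identifier in the sources used here names one.

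A harvested fruit no longer receives sugar, water or precursors from the plant and lives on its own reserves, while its transcripts go on being made and degraded. Flavonoids, the compounds that the study followed, are made from phenylalanine. Phenylalanine ammonia-lyase (PAL), cinnamate 4-hydroxylase (C4H) and 4-coumarate-CoA ligase (4CL) make an activated acid, chalcone synthase (CHS) builds the flavonoid skeleton, later enzymes modify it, and UDP-glycosyltransferases (UGT) attach sugars. In many plants MYB transcription factors, some of them together with bHLH factors, switch on genes of this pathway.

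The libraries of a stage were not equally alike. Among 15664 unigenes outside the study's gene lists with a mean of at least 5 FPKM, Pearson's r of log2(FPKM + 1) was 0.976 to 0.985 between S2 libraries. In S1 it was 0.966 between S1-2 and S1-3, but 0.871 and 0.881 between S1-1 and these. The median unigene of this set differed by 0.11 to 0.14 on the log2 scale between S2 libraries, by 0.16 between S1-2 and S1-3, and by 0.34 and 0.37 between S1-1 and the other S1 libraries. S1-1 was the library farthest from the mean of S1 for 62.5% of these unigenes. S1-1 was also the S1 library most like the later stage, with a mean r of 0.691 with the S3 libraries, against 0.557 for S1-2 and 0.564 for S1-3. The S2 libraries had a mean r of 0.594 to 0.625 with the S3 libraries, all below that of S1-1. Each r is a description over unigenes of 1 shared assembly.

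The unigenes in the study's lists of flavonoid enzymes and transcription factors had the opposite pattern. Among the 105 listed transcription factors with a mean of at least 5 FPKM, r was 0.622 and 0.652 between S2-1 and the other S2 libraries and 0.948 between S2-2 and S2-3, against 0.948 to 0.981 in S1. Here it was S2-1 that was most like S3, with a mean r of 0.477 against 0.115 and 0.124 for S2-2 and S2-3, and the S1 libraries had 0.144 to 0.230. For the 73 listed enzymes r was 0.899 to 0.963 in S2 and 0.958 to 0.974 in S1. S2-1 was the farthest S2 library for 72.4% of the listed factors and for 36 of 72 listed enzymes, against 34.2% of the unlisted unigenes.

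In the lists S1 was thus the stage of close libraries and S2 that of scattered ones, the reverse of the unlisted unigenes, and the reason was not tested. In the study's table of 95 flavonoid genes, 91 entries match exactly 1 unigene through their 9 values, and for 19 of them the table gives the values under other stages than the files. One factor, the Dof gene FSG0150540, differs in the same way. The unigene of SePAL4 and another unigene hold the same 9 values with S2 and S1 exchanged, the only such pair among unigenes with at least 7 values above 0. The stages used throughout are those of the file columns. The study also followed some of these genes by quantitative PCR at the same stages, a measure that bears on their direction and was not used here.

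**Figure D1:**
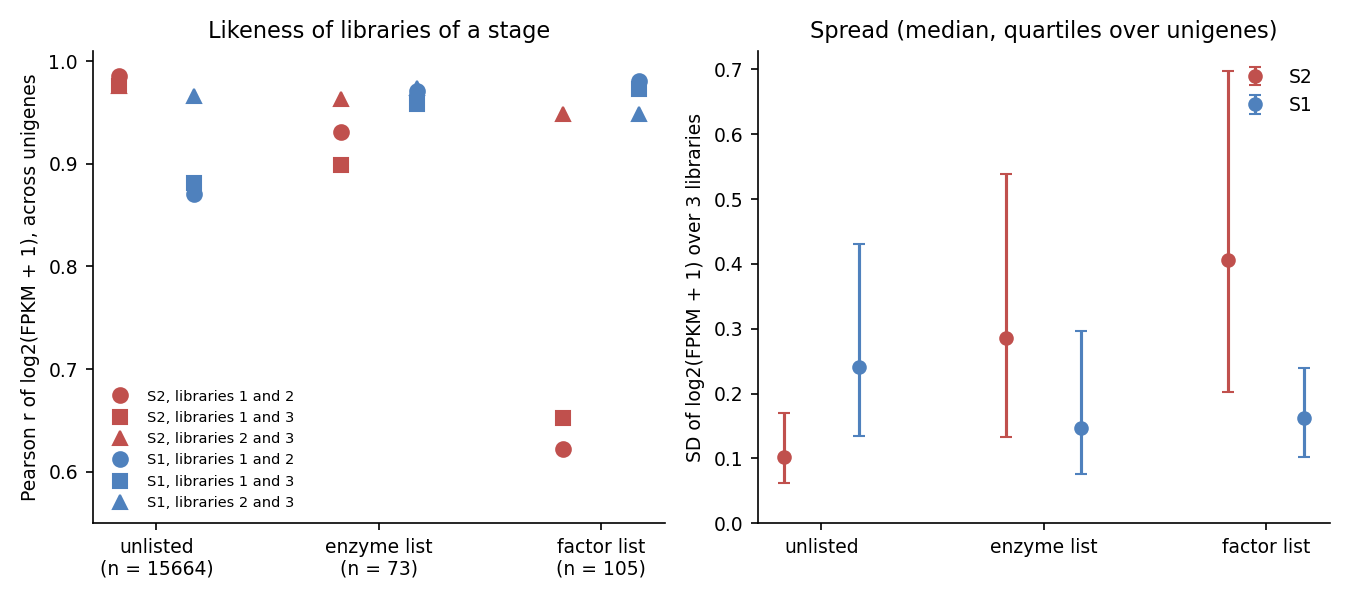
Left, Pearson's r of log2(FPKM + 1) between the libraries of S2 (red) and of S1 (blue), for unlisted unigenes, the enzyme list and the factor list, each with a mean of at least 5 FPKM. Right, the SD of log2(FPKM + 1) over the 3 libraries of a stage, as the median over unigenes with quartiles as bars. Pairs with S1-1 are the low ones among unlisted unigenes (0.871 and 0.881), and pairs with S2-1 among the factors (0.622 and 0.652).

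Over the first 15 days 2126 unigenes rose and 3049 fell, so 5175 of 25755 tested (20.1%) were called, 8.25% upwards and 11.8% downwards. The median fold over all tested unigenes was -0.04 on the log2 scale, and the quartiles were -0.41 and 0.31. The median fold of the called unigenes was 1.08 for those that rose and -1.02 for those that fell. A log2 fold of at least 1 was reached by 1176 unigenes that rose and 1568 that fell, and a log2 fold of at least 3 by 70 and 131. Called folds ran from -7.33 to 5.41. Large falls were thus more numerous than large rises in these counts, with 17 falls and 2 rises of at least 5. For 42.2% of the tested unigenes the S2 and S1 libraries did not overlap, and every call was among these.

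The split between rises and falls depended on the scaling. After quantile normalization, which gives all libraries the same distribution of values, 2656 unigenes rose and 2520 fell, and the median fold was 0.03. After median-of-ratios scaling 2415 rose and 2645 fell. Single libraries moved the count of 5175 calls by more than 1.5 times. Without S1-1 it was 8182 (3178 rose and 5004 fell), without S1-2 3028, and without S2-1, S2-2 and S2-3 it was 1870, 1769 and 2267. Of the 5175 calls 4988 were also called in the same direction without S1-1, and 3194 unigenes were called only then. Among the 8182, S1-1 lay on the S2 side of the mean of S1-2 and S1-3 for 57.4%.

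Called unigenes of the same Trinity component, a cluster of transcripts with shared sequence, mostly moved the same way. Of 455 pairs of called unigenes in 1 component, 361 (79.3%) had the same direction, against 51.6% of all pairs of called unigenes. Members of a component can be copies or fragments of 1 gene, so the calls are fewer independent events than their number.

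**Figure D2:**
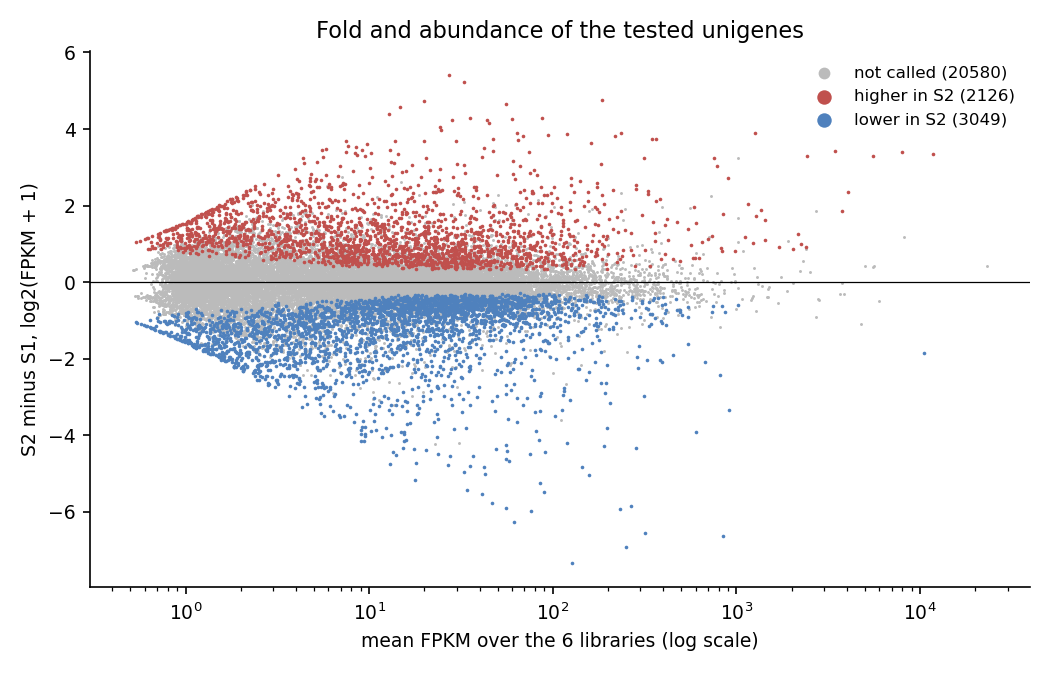
Fold (S2 minus S1 on log2(FPKM + 1)) of the 25755 tested unigenes against their mean FPKM over the 6 libraries on a log scale. Red points rose (2126), blue points fell (3049) and grey points were not called (20580), and the oblique edges on the left are unigenes listed at or near 0 in a stage.

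Abundant unigenes were called more often than rare ones. Tested unigenes were put in 5 classes by their mean FPKM over the 6 libraries. Of 5649 unigenes under 2 FPKM 11.7% were called, of 7893 between 2 and 10 it was 19.2%, and of 9036 between 10 and 50 it was 22.9%. Of 2613 unigenes between 50 and 200 FPKM 29.5% were called, and of 564 at 200 and over 27.5%. The median standard error of the fold was 0.32 in the lowest class, 0.15 between 10 and 200 FPKM and 0.19 at 200 and over. The median size of a called fold was 1.33 on the log2 scale under 2 FPKM, 0.83 between 10 and 50, and 1.09 at 200 and over. The reason for the different shares called was not tested.

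Falls outnumbered rises in the 4 lower classes, most between 10 and 50 FPKM, where 1294 fell and 779 rose. The overall split depended on the scaling, and the split by class is given only for the FPKM as listed. At 200 FPKM and over 76 fell and 79 rose. That near balance depended on S1-1, without which 209 fell and 112 rose. At a log2 fold of at least 2, this class held 23 unigenes that rose and 16 that fell.

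The transcripts of the highest class, taken as a whole, made up a larger part of the S2 libraries. Its unigenes made up 46.1%, 45.03% and 46.0% of the FPKM total in S2-1, S2-2 and S2-3, against 38.1%, 41.2% and 40.5% in S1-1, S1-2 and S1-3. All S2 libraries lay above all S1 libraries. The class holds the 6 abundant unigenes described below that rose. These alone made up 6.77 to 7.84% of the total in S2 and 0.820 to 0.965% in S1. The share of the class without them was not computed, so the difference is not shown for its other unigenes. The class of 10 to 50 FPKM took 21.9 to 22.6% in S2 and 24.1 to 25.8% in S1, and that of 50 to 200 took 25.1 to 25.6% in S2 and 27.3 to 28.6% in S1. These classes were lower in every S2 library. The shares are parts of the same total, so a gain of the highest class lowers the others.

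**Figure D3:**
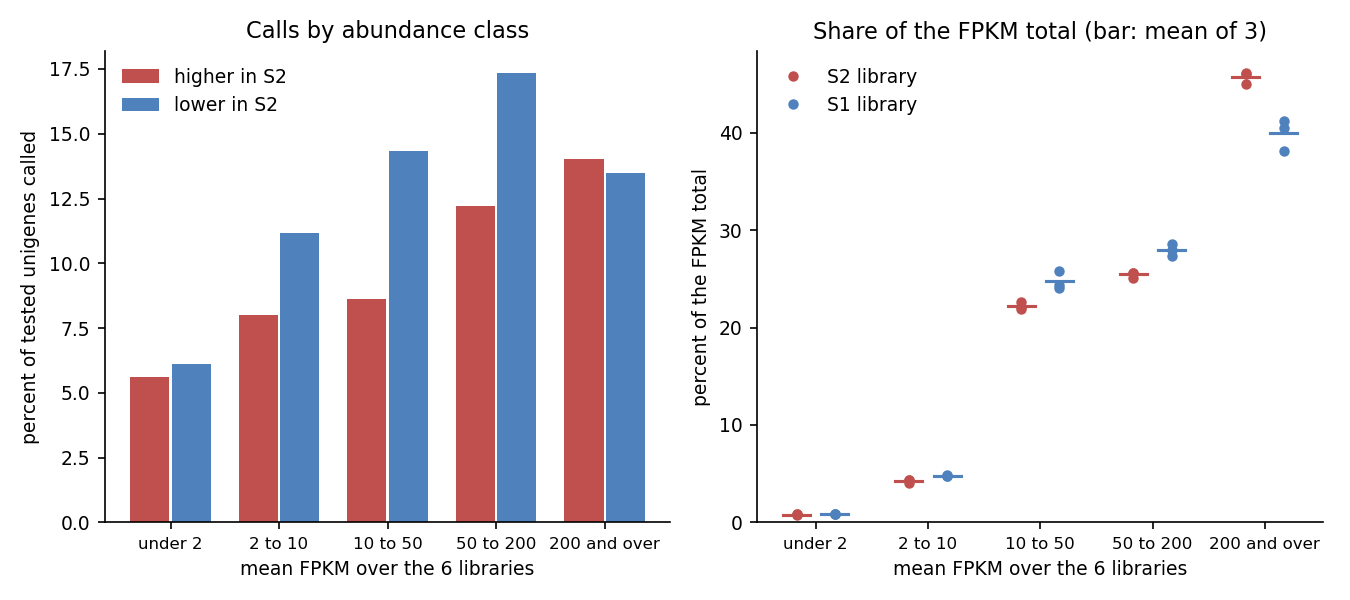
Left, percent of the tested unigenes of each class of mean FPKM that rose (red) or fell (blue) in S2 relative to S1. Right, percent of the FPKM total in each class, with a point per library (S2 red, S1 blue) and a bar at the mean of 3 libraries. At 200 FPKM and over, S2 libraries hold 45.03 to 46.1% and S1 libraries 38.1 to 41.2%.

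The 10 most abundant unigenes of each library also took more of the S2 libraries, with 12.6%, 12.1% and 13.3% of the FPKM total in S2-1, S2-2 and S2-3, against 8.45%, 10.05% and 8.81% in S1-1, S1-2 and S1-3. The difference of the means was 3.58 percentage points, with an exact two-sided permutation p = 0.1, the smallest that 3 against 3 libraries allow. Only 4 unigenes were among the 10 with the highest mean in both stages. Of the 16 in either list 6 rose and 1 fell, against 27.5% called of all unigenes at 200 FPKM and over. A high mean in 1 of the compared stages put a unigene in a list, which favours such calls, so the count is a description. None of the 16 is paired with a gene name in the sources used here.

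The 6 abundant unigenes that rose made up 6.77%, 6.84% and 7.84% of the FPKM total in S2-1, S2-2 and S2-3, against 0.965%, 0.942% and 0.820% in S1-1, S1-2 and S1-3. The one that ranked second in S2 had 17855, 20440 and 25584 FPKM in S2 and 2052, 2486 and 1738 FPKM in S1 (log2 fold 3.35, standard error 0.31, limma adjusted p = 0.00249). The next in rank had 15073, 13137 and 15433 FPKM in S2 and 1452, 1367 and 1305 FPKM in S1 (log2 fold 3.40, standard error 0.23, adjusted p = 0.00116). S1-1 lay close to the other S1 libraries for both. The most abundant unigene of both stages had 29197, 24854 and 25188 FPKM in S2 and 17228, 22635 and 19911 FPKM in S1, and was not called (adjusted p = 0.584). The abundant unigene that fell had 4166, 4640 and 4349 FPKM in S2 and 21337, 18533 and 9986 FPKM in S1 (log2 fold -1.85, standard error 0.40, adjusted p = 0.0239).

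Unigenes above 0 numbered 44825, 43009 and 42766 in S2 and 41887, 44454 and 42454 in S1 (exact permutation p = 0.5), and those of at least 1 FPKM numbered 25749, 26838 and 26667 in S2 and 26612, 27466 and 26976 in S1 (exact permutation p = 0.3). The ranges overlapped for both. Abundant unigenes, of at least 100 FPKM, numbered 1359, 1347 and 1332 in S2 and 1454, 1430 and 1444 in S1, with every S2 library below every S1 library (exact permutation p = 0.1, the smallest possible). The FPKM total was 902834 to 914583 in S2 and 868507 to 886010 in S1. The files hold no read counts, but low values move in steps of 1 read. From these steps S2-1 was estimated as the deepest library and S1-2 as the next, and the other 4 at 0.772 to 0.872 times S1-2. This is an estimate from the FPKM and not the read total of a library, which the study states and which was not used here. S2-1, the deepest library, had the most unigenes above 0.

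The spread between libraries was smaller in S2 for most unigenes. Over all tested unigenes the median SD of log2(FPKM + 1) was 0.14 in S2 and 0.29 in S1, and 26.5% of unigenes had the larger SD in S2. The gap was widest in the highest class, with 0.09 in S2 and 0.32 in S1. Under 2 FPKM it was 0.32 in S2 and 0.41 in S1. Without S1-1 the difference of -0.15 became 0.00. That fit sets an SD over fewer S1 libraries against one over all S2 libraries, so it does not show equal spread. Pair by pair, the median tested unigene differed by 0.15 to 0.18 between S2 libraries and by 0.20 between S1-2 and S1-3. Pairs with S1-1 differed by 0.38 and 0.41.

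In the lists the order was reversed. The median SD of the listed factors was 0.41 in S2 and 0.16 in S1, and that of the listed enzymes 0.29 in S2 and 0.15 in S1. The larger SD was in S2 for 81.9% of these factors and 71.2% of these enzymes, against 19.5% of the unlisted unigenes. By family, WRKY factors had median SDs of 0.56 in S2 and 0.18 in S1, and bHLH factors 0.47 in S2 and 0.18 in S1. Dof factors, with 8 unigenes, had 0.22 in S2 and 0.19 in S1. The 16 enzymes that the study's table gives under other stages, or whose values 2 unigenes hold, had 0.37 in S2 and 0.46 in S1, as in the unlisted unigenes in order though not in size. The 57 enzymes given under the same stages had 0.27 in S2 and 0.12 in S1, and 78.9% of them had the larger SD in S2. The reason was not tested.

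Few transcripts were switched on or off. A unigene was taken as switched on where it was listed at 0 in all 3 S1 libraries and had at least 1 FPKM in all 3 S2 libraries, and as switched off in the opposite case. Of the 57814 unigenes 96 were switched on and 130 switched off. Most were low, with an S2 mean under 10 FPKM for 94 of the 96 and an S1 mean under 10 for 123 of the 130. With a level of 5 FPKM in place of 1, only 2 were switched on and 6 switched off. A value of 0 is what the file lists and does not show absence, so no fold is given. Since this definition uses the values that the test compares, its calls (95 of the 96 and 124 of the 130) are no further evidence.

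Leaving out a library removes a condition on what counts as switched, so both counts could only stay or grow. The 96 became 284, 251 and 273 without S2-1, S2-2 and S2-3 and 171 without S1-2. The 130 became 376, 314 and 353 without S1-1, S1-2 and S1-3 and 196 without S2-1. In the later S3 stage 49 of the 96 unigenes were at 0 in all libraries and 4 had at least 1 FPKM in all 3. Of the 130 switched off, 73 were at 0 in all S3 libraries and 5 had at least 1 FPKM in all 3.

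The highest unigene switched on, TRINITY_DN34659_c0_g1, had 70.5, 80.7 and 12.1 FPKM in S2-1, S2-2 and S2-3 and was listed at 0 in S1. TRINITY_DN13427_c0_g1 had 13.9, 4.89 and 14.3 FPKM in S2 and was listed at 0 in S1. The S2 libraries of both differed by several times among themselves. The highest unigene switched off, TRINITY_DN4951_c0_g2, was listed at 0 in S2 and had 24.3, 52.5 and 7.66 FPKM in S1-1, S1-2 and S1-3. TRINITY_DN4742_c0_g1 was listed at 0 in S2 and had 55.4, 16.1 and 9.75 FPKM in S1. None of the 4 is paired with a name in the sources used here. A wider class, unigenes of at least 1 FPKM in all libraries of one stage and in none of the other, held 546 for S2 and 705 for S1, while 18827 unigenes had at least 1 FPKM in all 6 libraries and 3941 of these were called.

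The study's list of flavonoid enzymes gave 92 unigenes, of which 84 passed the filter, and 22 rose, 41 fell and 21 were not called. That is 75% of those tested, against 20.1% of all tested unigenes. The median fold was -0.81 against -0.04 over all. The study chose these genes for differences between stages in these same samples, so neither share nor direction is independent evidence. The counts by enzyme family below stand beside 8.25% that rose and 11.8% that fell of all tested unigenes. No family was tested as a set. The 63 calls became 41 without S2-2. The study's table gives most named genes of the steps from PAL to IFR under other stages than the files. The exceptions are Se4CL4, Se4CL7, Se4CL16, SeFLS3 and SeFNSI1. SePAL4 cannot be placed, since a second unigene holds its values with the stages exchanged. Among the named UGT genes SeUGT2, SeUGT3 and SeUGT4 are given under other stages. For every gene given under other stages, and for SePAL4, the direction of its fold below is uncertain. Where the stages agree, the direction is not thereby settled. These enzymes and the listed factors had the reversed order of spread, and the reason was not tested. The 65 tested enzymes whose stages agree between the study's table and the files had 22 that rose, 31 that fell and a median fold of -0.14.

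For the genes of this pathway that the study followed by quantitative PCR, its primers identify the transcript measured. Those of SeC4H1, SeFLS1, SeIFR1 and SeMYB1 are shown 5′ to 3′, since the files hold no unigene sequence. SeMYB1, a MYB gene, was not called. The enzyme genes SeC4H1, SeFLS1 and SeIFR1 fell by the file columns, but the study's table gives them under other stages. In the study's primer list the names SePAL2, SeCHS1, SeUGT1 and SeUGT4 stand for other gene identifiers than in the text below. The positions of the primers in a genome are not known here.
SeC4H1 forward: acgtcgtcttcgatatcttc
SeC4H1 reverse: gcttgattctcgtctcctta
SeFLS1 forward: gatttcaggaacccagatca
SeFLS1 reverse: gagctcgaagaactccttac
SeIFR1 forward: caattcctctccaagatgaaag
SeIFR1 reverse: cttcttctccttcgcctaat
SeMYB1 forward: gcactactcttcttcttcttc
SeMYB1 reverse: caagacgaaggctcaataaa

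At the entry of the pathway, 3 of 13 tested PAL unigenes rose and 3 fell. Of the 4 that the study named, only SePAL4 (FSG0038960) was called, with 17.3, 19.96 and 16.6 FPKM in S2 and 30.5, 58.8 and 47.1 FPKM in S1 (log2 fold -1.25, standard error 0.24, adjusted p = 0.0174), and it is the gene whose values a second unigene holds with the stages exchanged. Its call held in 2 of the 6 fits with a library left out, without S1-1 or S1-2, and was lost with all 9 libraries in 1 fit (adjusted p = 0.107). SePAL1 (FSG0087710) had 2.12, 4.71 and 1.53 FPKM in S2 and 5.48, 17.9 and 41.5 FPKM in S1 (adjusted p = 0.0668). The S1 libraries of SePAL1 differed several-fold, and without S1-1 its adjusted p was 0.00884. SePAL2 had 1.09 to 1.38 FPKM in S2 and 2.06 to 3.10 in S1, without overlap (adjusted p = 0.0590), and SePAL3 had 0.90 to 1.88 in S2 and 0.69 to 4.25 in S1 (adjusted p = 0.869).

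SeC4H1 (FSG0025420), which hydroxylates cinnamic acid and whose primers are given above, had 81.2, 58.1 and 30.2 FPKM in S2 and 106.8, 220.6 and 287.4 FPKM in S1. All S2 libraries lay below all S1 libraries, and the fold was -1.84 (standard error 0.48, adjusted p = 0.0425). The call was kept only without S1-1, and leaving out any other library raised the adjusted p to between 0.0694 and 0.118.

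Of 11 tested 4CL unigenes 2 rose and 5 fell. 4CL activates the acid with coenzyme A for several branches of phenolic metabolism. Se4CL1 (FSG0047110) had 21.3, 22.4 and 16.4 FPKM in S2 and 132.7, 83.7 and 90.0 FPKM in S1 (log2 fold -2.28, standard error 0.21, adjusted p = 0.00240). Se4CL3 (FSG0262330) had 4.29, 6.08 and 3.80 FPKM in S2 and 26.3, 20.1 and 12.8 FPKM in S1 (log2 fold -1.82, standard error 0.28, adjusted p = 0.00958). Both were called whichever library was left out. Se4CL2 (FSG0140440) fell as well, with 11.4 to 13.4 FPKM in S2 and 22.7 to 46.0 in S1, and was called in 2 of the 6 fits with a library left out. Se4CL4 (FSG0062770) stood the other way, with 30.2, 35.1 and 47.4 FPKM in S2 and 24.3, 25.8 and 23.1 FPKM in S1, and was not called (adjusted p = 0.0616), but was after quantile normalization (adjusted p = 0.0386). Se4CL16 had 1.79 to 4.20 FPKM in S2 and 1.83 to 2.78 in S1 (adjusted p = 0.490), and Se4CL7 did not pass the filter.

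Both CHS unigenes were called, 1 upwards and 1 downwards. CHS joins the activated acid to malonyl units and so opens the flavonoid branch. SeCHS1 (FSG0130210) fell, with 22.5, 36.1 and 43.8 FPKM in S2 and 168.0, 127.7 and 90.1 FPKM in S1 (log2 fold -1.89, standard error 0.31, adjusted p = 0.0113). The call held without each library in turn, but was lost with all 9 libraries in 1 fit (adjusted p = 0.213).

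SeF3H (FSG0060970), the flavanone 3-hydroxylase that leads to dihydroflavonols, had 49.9, 47.0 and 48.8 FPKM in S2 and 73.2, 69.5 and 41.4 FPKM in S1 (adjusted p = 0.413). S1-3 alone lay below the S2 libraries, and without it the adjusted p was 0.0236. SeFLS1 (FSG0080030), the flavonol synthase of the next step, had the highest FPKM of the named enzyme genes after CHS other than the UGT genes, with 168.9, 188.7 and 182.8 FPKM in S2 and 315.0, 413.4 and 323.7 FPKM in S1 (log2 fold -0.95, standard error 0.14, adjusted p = 0.00812). The libraries of SeFLS1 were close together in both stages, and its call held without each library in turn. SeFLS3 did not pass the filter.

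SeDFR (FSG0149470), the dihydroflavonol 4-reductase on the way to anthocyanins and tannins, had 104.1, 18.3 and 35.8 FPKM in S2 and 74.0, 49.7 and 70.7 FPKM in S1. S2-1 lay above and the other S2 libraries below all S1 libraries, and the gene was not called (adjusted p = 0.512). SeFNSI1 (FSG0165280), a flavone synthase, had 1.64, 1.73 and 3.56 FPKM in S2 and 4.92, 9.35 and 5.15 FPKM in S1 (log2 fold -1.17, standard error 0.32, adjusted p = 0.0483). Its call was lost when any library other than S1-1 was left out, with an adjusted p of up to 0.156.

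Isoflavone reductase (IFR) acts on isoflavones in legumes, and related proteins of other plants have other substrates. Of 5 tested IFR unigenes 3 fell and none rose. SeIFR1 (FSG0001040) had 105.7, 49.0 and 48.0 FPKM in S2 and 143.9, 183.8 and 194.9 FPKM in S1 (log2 fold -1.44, standard error 0.32, adjusted p = 0.0273), and was called without S1-1 or S2-1, while leaving out any other library gave an adjusted p of 0.0743 to 0.0998. SeIFR2 (FSG0221220) had 4.5, 3.64 and 3.54 FPKM in S2 and 13.8, 5.51 and 14.8 FPKM in S1 (adjusted p = 0.0557), and was called without S1-2 (adjusted p = 0.0105).

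The UGT genes, which attach sugars to flavonoids and other compounds, moved in both directions. Of 46 tested 16 rose, 25 fell and 5 were not called, with a median fold of -1.31. SeUGT3 (FSG0092180) fell most among the named enzymes, with 8.32, 5.17 and 10.5 FPKM in S2 and 82.8, 81.1 and 102.3 FPKM in S1 (log2 fold -3.36, standard error 0.24, adjusted p = 0.00138). SeUGT2 (FSG0001140) had 181.1, 100.4 and 70.4 FPKM in S2 and 723.1, 339.9 and 308.0 FPKM in S1 (log2 fold -1.95, standard error 0.45, adjusted p = 0.0298). SeUGT3 was called without each library in turn and SeUGT2 in 3 of these 6 fits. SeUGT1 (FSG0198300) fell too, with 3.78 to 12.7 FPKM in S2 and 21.2 to 27.2 in S1, in 2 of the 6 fits.

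SeUGT12 (FSG0054490) rose most, with 28.1, 9.70 and 10 FPKM in S2 and 1.16, 1.52 and 2.22 FPKM in S1 (log2 fold 2.54, standard error 0.42, adjusted p = 0.0113). SeUGT10 (FSG0092170) had 53.6, 62.8 and 59.1 FPKM in S2 and 31.3, 25.9 and 27.5 FPKM in S1 (log2 fold 1.03, standard error 0.11, adjusted p = 0.00373). SeUGT43 (FSG0077510) had 18.8, 21.2 and 22.5 FPKM in S2 and 10.3, 10.1 and 10.5 FPKM in S1 (log2 fold 0.95, standard error 0.11, adjusted p = 0.00398). These 3 calls held without each library in turn. SeUGT14 and SeUGT17 rose by 0.49 and 0.72 on the log2 scale, but were called in only 1 and 2 of these 6 fits and not with all 9 libraries in 1 fit (adjusted p = 0.116 and 0.133). SeUGT4, among the most abundant UGT genes named, had 171.2 to 244.6 FPKM in S2 and 213.8 to 228.0 in S1 and was not called (adjusted p = 0.486).

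**Figure D4:**
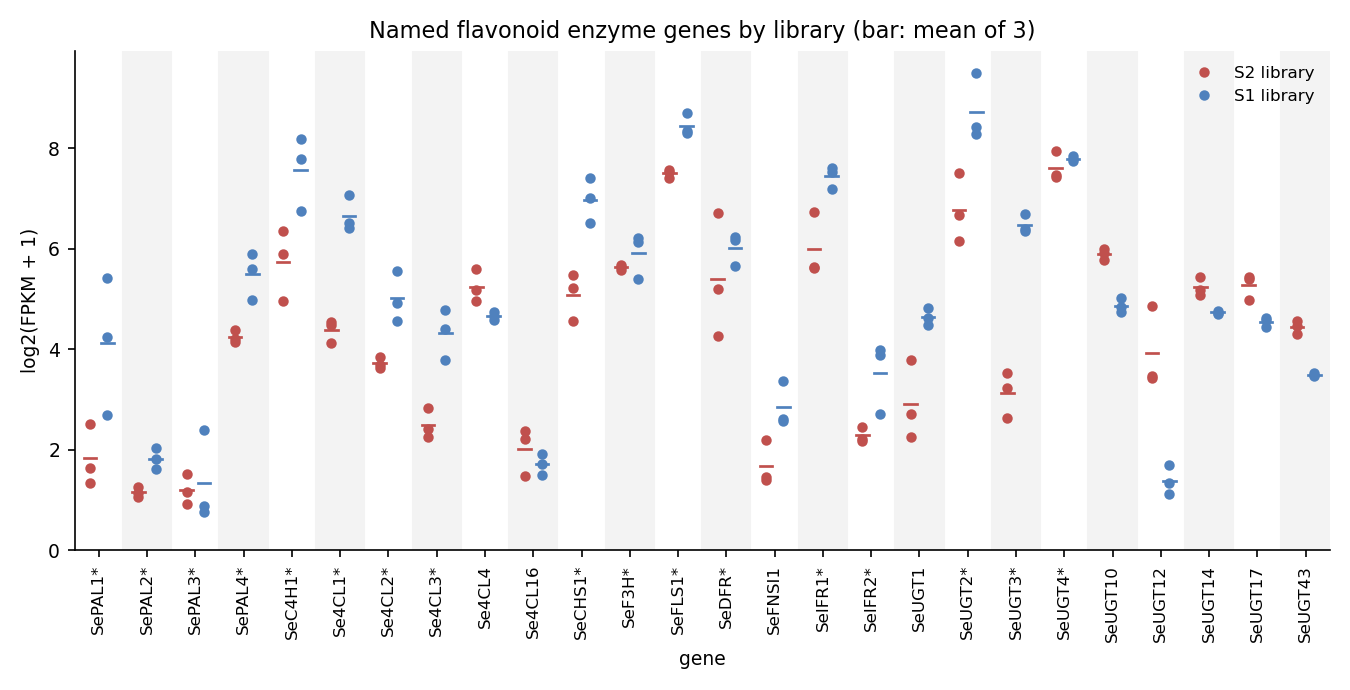
log2(FPKM + 1) of the 26 tested named enzyme genes in each S2 (red) and S1 (blue) library, in pathway order, with a bar at the mean of 3 libraries. An asterisk marks genes whose values the study's table gives under other stages or that 2 unigenes hold. Of the 26, 12 fell, of which SeFNSI1 and SeUGT1 carry no asterisk, and 5 UGT genes without an asterisk rose.

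Of the 26 tested named enzymes 5 rose, 12 fell and 9 were not called, and 8 of the 17 calls held without each library in turn. Among the 19 tested enzymes given under other stages, or whose values 2 unigenes hold, none rose, 10 fell and 9 were not called.

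The study's lists of 5 transcription factor families gave 137 unigenes, of which 126 were tested. Of these 32 rose, 24 fell and 70 were not called, which is 44.4% called against 20.1% of all tested, with a median fold of 0.14. The study picked these genes too from differences in the same libraries. The counts by factor family below stand beside 8.25% that rose and 11.8% that fell of all tested unigenes. No factor family was tested as a set. The 56 calls became 35 without S1-2 and 29 without S2-2. Of the factors named below, FSG0148330, FSG0169820, FSG0203810, FSG0127540, FSG0035590, FSG0209650 and FSG0150540 were under 1 FPKM in all libraries of their lower stage and passed the filter through the other stage, so their calls, also with a library left out, are no further evidence. Without S2-1, the library that stands apart for these genes, 24 rose and 16 fell, and the median fold was -0.03.

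MYB factors bind DNA through MYB repeats, and some of them regulate flavonoid genes. Of 40 tested 9 rose and 7 fell. SeMYB1 (FSG0057100), which the study relates to AtMYB12, a regulator of flavonol synthesis in Arabidopsis, had 24.6, 39.9 and 23.8 FPKM in S2 and 30.1, 34.5 and 35.95 FPKM in S1 (adjusted p = 0.523). Its S2 and S1 libraries overlapped, and it was called in none of the 6 fits with a library left out. SeMYB3 (FSG0239060) had 165.1, 26.0 and 45.1 FPKM in S2 and 77.0, 89.0 and 84.1 FPKM in S1 (adjusted p = 0.615). S2-1 decided this gene, since it lay above all S1 libraries while the other S2 libraries lay below, and without it the adjusted p was 0.0499.

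The MYB gene with the largest fall, FSG0083540, had 7.42, 6.15 and 11.1 FPKM in S2 and 95.4, 114.3 and 106.6 FPKM in S1 (log2 fold -3.56, standard error 0.20, adjusted p = 9.58e-04). FSG0047650 had 2.91, 8.36 and 5.97 FPKM in S2 and 39.6, 40.1 and 42.8 FPKM in S1 (log2 fold -2.72, standard error 0.31, adjusted p = 0.00407). Both had narrow S1 libraries and were called without each library in turn, as was FSG0221650, with 3.58 to 6.08 FPKM in S2 and 16.3 to 27.1 in S1. Of the 3 largest rises, FSG0079980 had 81.03, 17.6 and 19.5 FPKM in S2 and 4.05, 4.5 and 1.53 FPKM in S1 (log2 fold 2.93, standard error 0.63, adjusted p = 0.0239), and was called in 2 of the 6 fits with a library left out. FSG0169820 had 6.28 to 16.0 FPKM in S2 and 0.39 to 0.74 in S1, and was called in all 6. FSG0148330 had 2.42 to 12.8 FPKM in S2 and 0.13 to 0.25 in S1, and was called in 3.

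bHLH factors, of which some act together with MYB factors on flavonoid genes, had 33 tested unigenes, of which 13 rose and 6 fell. FSG0014610 had 53.3, 55.5 and 33.1 FPKM in S2 and 1.86, 1.09 and 3.44 FPKM in S1 (log2 fold 3.98, standard error 0.33, adjusted p = 0.00176). FSG0046660 had 40.0, 179.5 and 121.7 FPKM in S2 and 2.98, 1.04 and 14.7 FPKM in S1 (log2 fold 4.27, standard error 0.86, adjusted p = 0.0203). The first was called without each library in turn, and the second, with a wide spread in both stages, in 3 of the 6 fits. FSG0203810, listed at 0 in S1-1, had 5.15 to 20.02 FPKM in S2 and at most 0.19 in S1, and rose in all 6.

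SebHLH1 (FSG0242730), one of the bHLH genes that the study followed by quantitative PCR, fell with 101.8, 102.5 and 113.0 FPKM in S2 and 157.8, 154.8 and 170.2 FPKM in S1 (log2 fold -0.60, standard error 0.10, adjusted p = 0.0101). This was a small but even fall, lost without S2-1 or S2-2 (adjusted p = 0.0559 and 0.0632). SebHLH2 (FSG0125260) had 17.03, 98.5 and 138.0 FPKM in S2 and 140.2, 105.9 and 122.8 FPKM in S1 (adjusted p = 0.411), with S2-1 far below all other libraries. The largest falls were those of FSG0231040, with 0.30 to 5.06 FPKM in S2 and 16.2 to 22.2 in S1, and FSG0198910, with 5.78 to 5.95 in S2 and 15.8 to 19.5 in S1. FSG0198910 was called in all 6 fits, FSG0231040 in 2, and FSG0191090 (10.3 to 20.6 FPKM in S2 and 27.6 to 32.8 in S1) in 1.

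WRKY factors are known from responses to pathogens and stress and from senescence in leaves. Of 22 tested 2 rose and 4 fell, while 16 were not called. Over all tested unigenes 20.1% were called, and a difference of this family from that share was not tested. FSG0127540 had 0.37, 0.08 and 0.17 FPKM in S2 and 5.40, 5.73 and 5.93 FPKM in S1 (log2 fold -2.48, standard error 0.18, adjusted p = 0.00146). FSG0242350 fell to 4.21, 6.75 and 5.71 FPKM in S2, against 17.4, 20.02 and 25.1 FPKM in S1, and FSG0247520 rose to 52.5, 60.9 and 46.1 FPKM in S2, against 24.2, 26.4 and 31.3 in S1. These 3 were called without each library in turn. FSG0141310 (7.68 to 12.3 FPKM in S2 and 17.8 to 21.8 in S1) and FSG0045110 (12.1 to 14.3 in S2 and 7.89 to 8.76 in S1) were called in 3 and 2 of these fits.

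bZIP factors, which in many plants act in abscisic acid and light responses, had 4 rises and 2 falls among 19 tested. Here too a difference from the 20.1% called of all tested unigenes was not tested. FSG0035590 had 17.2, 17.8 and 14.3 FPKM in S2 and 0.92, 0.37 and 0.99 FPKM in S1 (log2 fold 3.32, standard error 0.20, adjusted p = 0.00103). FSG0013290 had 3.03, 8.01 and 6.56 FPKM in S2 and 32.6, 36.1 and 34.7 FPKM in S1 (log2 fold -2.45, standard error 0.30, adjusted p = 0.00475). Both folds, and that of FSG0175900 with 50.9 to 92.6 FPKM in S2 and 17.7 to 20.2 in S1, were called without each library in turn. FSG0198220 (21.9 to 46.9 FPKM in S2 and 12.1 to 14.0 in S1) and FSG0254550 (12.03 to 20.5 in S2 and 27.1 to 33.9 in S1) were called in 2 of the 6 fits.

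Dof factors, a zinc finger family of plants, had 9 calls among 12 tested, of which 4 rose and 5 fell. FSG0209650 had 3.08, 7.17 and 8.92 FPKM in S2 and was listed at 0 in all S1 libraries. FSG0150540 was listed at 0 in all S2 libraries and had 3.81, 7.46 and 5.57 FPKM in S1. FSG0150540 is the factor that the study's table gives under other stages than the files, so the direction of its switch is uncertain. FSG0134960 had 73.2, 51.3 and 53.0 FPKM in S2 and 15.6, 15.2 and 12.9 FPKM in S1 (log2 fold 1.94, standard error 0.16, adjusted p = 0.00194). FSG0145060 and FSG0165530 fell by 1.18 and 1.24 on the log2 scale, with 15.3 to 19.6 FPKM in S2 and 33.03 to 45.2 in S1 over both. FSG0134960, FSG0145060 and FSG0165530 were called without each library in turn, and FSG0019450 (28.4 to 30.7 FPKM in S2 and 16.0 to 22.3 in S1) in 2 of the 6 fits.

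**Figure D5:**
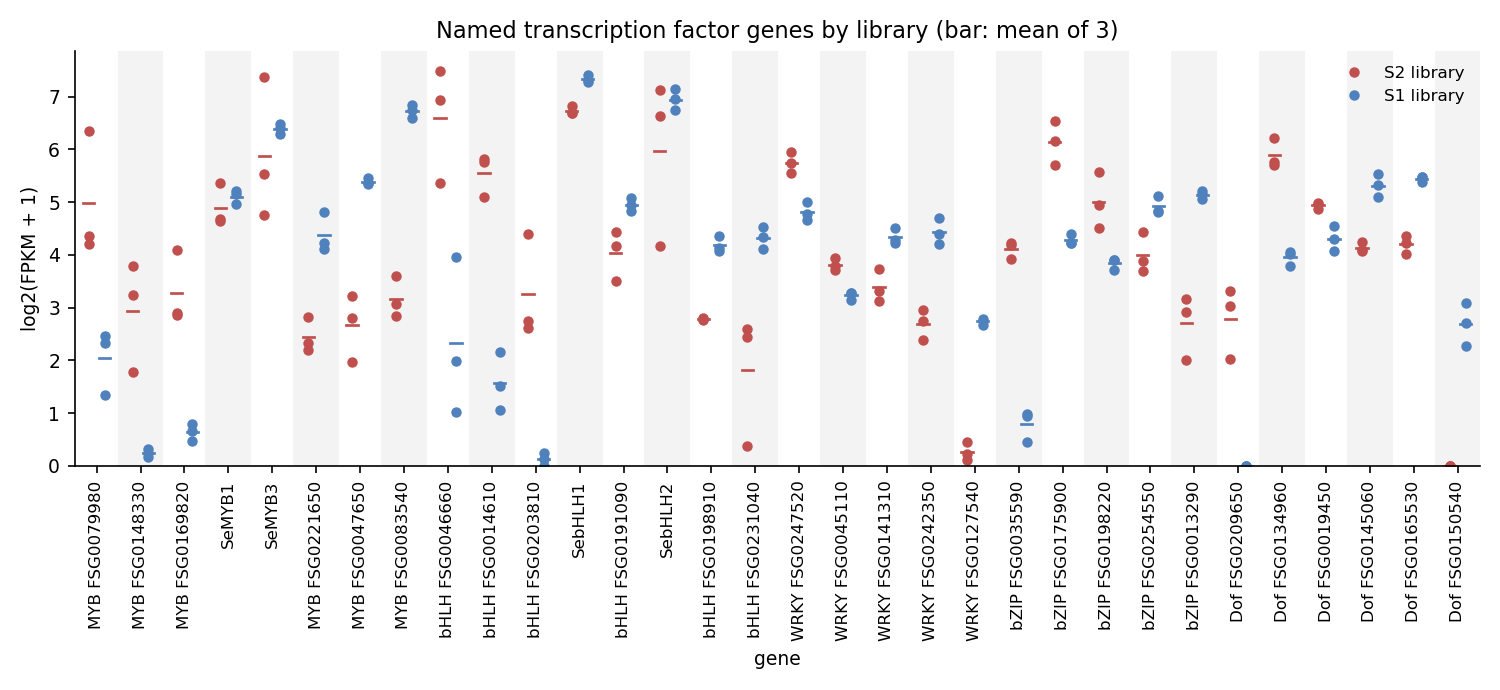
log2(FPKM + 1) of the named transcription factor genes in each S2 (red) and S1 (blue) library, grouped by family and ordered by fold within it, with a bar at the mean of 3 libraries. SeMYB1, SeMYB3 and SebHLH2 overlap between the stages, and S2-1 is the highest S2 library of SeMYB3 (165.1 FPKM) and the lowest of SebHLH2 (17.03 FPKM).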

How the data were processed

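RNA of chayote fruits was sequenced at harvest and after 15 days of storage, 3 libraries each. The authors deposited FPKM with 2 decimals for 57814 unigenes, 1 file per library, from reads filtered with fastp. The sources used here do not name the mapper or the counter. In the file of S1-1, 8 columns without a name hold values in 1 row and were not used. The files hold no read counts or lengths, so no counting interval was computed. FPKM is relative to the total, so a change in a few abundant transcripts moves all others.

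Unigenes that passed a minimum of 1 FPKM in 3 or more of the 6 libraries were fitted with limma 3.58.1 in R 4.3.3 (lmFit, eBayes with trend) on log2(FPKM + 1), with Benjamini-Hochberg adjustment over all 25755. Other steps used scipy 1.17.1, pandas 2.3.3, matplotlib 3.10.9 and numpy 2.4.6 under Python 3.11.15. Library measures were compared by an exact two-sided permutation test. The study names a T-test for groups in general. The fit was tested on simulated data.

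Gene families and names come from the study's gene lists and identifiers from its list of 28 structural genes. Enzymes without an identifier were matched through their 9 values to 2 decimals, where 2 of 95 entries matched no unigene and 2 matched several. The 145 entries of the factor lists gave 137 unigenes. Named genes are the 28 structural genes, SeMYB1, SeMYB3, SebHLH1 and SebHLH2, per factor family at most 3 rises and 3 falls with the largest folds and a mean of at least 5 FPKM in the higher stage, and, outside the lists, the 2 highest unigenes switched on and the 2 switched off. The members, lists and rules were chosen with earlier results of these data known.

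Alternatives were all 9 libraries, 2 other scalings, no filter or one at 5 FPKM, pseudocounts of 0.1 and 0.01, other limma options, leaving out each library, a block by replicate number, a log2 fold of at least 1, an adjusted p under 0.01, and the lists without unigenes whose stages differ. The exchange of S2 and S1 for the listed unigenes was added after seeing the data.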

Additional observations from a re-analysis of the deposited data

How the results depend on the processing

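Of the 5175 calls 2126 rose and 3049 fell. These counts were 2744, 1176 and 1568 with a log2 fold of at least 1, and 1589, 732 and 857 at an adjusted p under 0.01. With 1 library left out they ran from 1769 to 8182 in all, from 802 to 3178 for rises and from 967 to 5004 for falls. With the replicate number as a block they were 2666, 1146 and 1520. No pairing of libraries by number is described. Over all tested unigenes the deviations of same-numbered S2 and S1 libraries from their stage means correlated at -0.02, -0.04 and 0.06. A correlation over all unigenes cannot exclude a pairing that shows in a part of them. Under the block, 9 of 50 named calls were lost. Enzyme calls (63) ran from 41 to 64 and factor calls (56) from 29 to 55 with 1 library left out, and were 38 and 28 at an adjusted p under 0.01. The median fold of -0.04 was 0.0010 after median-of-ratios scaling and 0.0315 after quantile normalization. With 1 library left out, unigenes switched on (96) ran from 129 to 284 and those switched off (130) from 172 to 376. At a level of 5 FPKM they were 2 and 6. The definition of a switch fixes the direction of both changes. The S2 minus S1 difference of the median SD (-0.15) ran from -0.19 to 0.0011, the last without S1-1. With a library left out, this difference compares SDs over unequal numbers of libraries. The difference in unigenes above 0 (602) ran from -44.2 to 1363. Beyond that definition, the cause of these differences was not tested, except that fewer libraries leave fewer degrees of freedom. All other alternatives kept these counts within 1.5 times. Of the 50 named unigenes called, 29 were called under every alternative that was fitted to single genes, and none changed its sign while called. Those alternatives leave out the exchange of stages and the stricter thresholds. The 29 include the named unigenes switched on or off, and factors that passed the filter through the higher stage alone. The way these were chosen favours such calls, so for them the count is no further evidence. The named factors of each family were also picked for large called folds. The exchange by its nature reverses every fold in the lists. It gave 41 rises and 22 falls of listed enzymes, and 24 rises and 32 falls of listed factors.

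With 3 libraries a stage, the exact test of a library measure cannot go below p = 0.1. Unigenes under 2 FPKM had the largest standard errors. Whether stages were sequenced together is not given, so a batch could not be examined. The directions of listed genes are those of the file columns.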
